A study of Mus musculus with 58 samples.

Results

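The genes described here were 5 genes that are characteristic of mesothelium, the single layer of flat cells that covers the lung, the liver and the stomach and lines the body cavities. They were Msln, Upk3b, Upk1b, Wt1 and Lrrn4, each measured by 1 probe, which makes 5 of the 55681 probes and 5 of the 20018 named genes on the array. They were picked by gene name with the lung values of these same arrays in view. Their lung values by dose are therefore given as a description, with no test. Tests are given for dose in liver and forestomach and for the tissues of vehicle mice, and the latter share the vehicle lungs that were in view.

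Male adult Muta™Mouse, a transgenic strain that carries a lacZ reporter used to score mutations, were gavaged for 28 days with olive oil (vehicle) or with indeno(123,cd)pyrene (IP), a polycyclic aromatic hydrocarbon, in olive oil. The daily dose was 12.5 mg, 25 mg or 50 mg per kg of body weight. All mice, the vehicle mice included, carried the reporter, were about 13 weeks old, and tissue was taken 72 hours after the last dose, with RNA from random sections of each tissue. Lung, liver and forestomach were measured in every mouse except vehicle mouse 4, of which the lung alone was analysed here. Each of the 58 two-colour Agilent arrays held the Cy5-labelled RNA of 1 tissue of 1 mouse against universal mouse reference RNA labelled with Cy3. The lung groups had 5 mice each, and the liver and forestomach groups had 4 vehicle mice and 5 mice per dose. A log2 ratio of 0 means as much signal as the reference, and since the reference holds a different amount of each transcript, ratios are compared between samples for 1 gene and not between genes. Probes well above background made up 53.0% to 90.7% of an array in lung, 37.6% to 78.9% in liver and 43.0% to 85.9% in forestomach, and no read depth applies to arrays. The tissue labels were checked on defining markers in vehicle mice: the mean log2 ratio of 5 alveolar type 2 genes was 5.07 ± 0.18 in lung and 0.07 ± 0.04 in liver, that of 6 hepatocyte genes was 7.79 ± 0.45 in liver, and that of 6 squamous epithelium genes was 5.43 ± 0.32 in forestomach. Each dose sat in 1 column of the slides, except for 2 liver arrays, so dose and array column cannot be told apart.

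Mesothelial cells arise from the mesoderm but carry epithelial proteins, secrete the lubricating fluid of the serous surfaces, and can take up a fibroblast-like shape after injury. In an organ such as the lung they sit only on the outer surface, as the visceral pleura, so their transcripts are a small part of the RNA of a piece of tissue. Msln encodes mesothelin, a protein tethered to the outer cell membrane by a lipid anchor. Lrrn4 encodes a membrane protein with leucine-rich repeats. Upk3b and Upk1b encode uroplakins, the membrane plaque proteins first known from bladder epithelium, and Upk1b belongs to the tetraspanins. Wt1 encodes the zinc-finger transcription factor of the Wilms tumour locus, which is needed for the development of the mesothelium, kidney and gonad.

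Msln lay below the vehicle mean in most lungs of IP-treated mice, with a wide spread between mice. Its log2 ratio was 0.36, 0.22, 0.21, 0.39 and -0.48 in vehicle mice 1 to 5, and -0.16, 0.45, -1.25, -0.28 and -0.44 in mice 6 to 10 at 12.5 mg. At 25 mg it was 0.82, -1.15, -1.63, -1.16 and -2.02 in mice 11 to 15, and at 50 mg it was -0.0042, -0.17, -0.28, -1.64 and -1.58 in mice 16 to 20. At 12.5 mg, 1 of 5 mice lay below the lowest vehicle mouse and 1 above the highest. At 25 mg, 4 of 5 mice lay below the lowest vehicle mouse and mouse 11 lay above the highest, so the groups overlapped. At 50 mg, 2 of 5 mice lay below every vehicle mouse. The group means ± SD were 0.14 ± 0.35, -0.33 ± 0.61, -1.03 ± 1.096 and -0.73 ± 0.81 from vehicle to 50 mg. The differences from vehicle were -0.47, -1.17 and -0.87, each with a standard error of 0.43. In bulk tissue, fewer mesothelial cells in a sample and less of a transcript in each cell cannot be told apart, and this holds for every value below.

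Lrrn4 followed the same mice. It stood at 0.85, 1.28, 1.29, 1.01 and 0.14 in vehicle lungs and at 0.64, 1.22, -0.51, -0.12 and -0.47 in lungs at 12.5 mg. It stood at 1.102, -0.57, -0.38, -0.87 and -1.07 at 25 mg and at 0.59, 1.204, 0.51, -1.07 and -0.54 at 50 mg. Mouse 11 was again the one mouse at 25 mg within the vehicle range, and 3 of 5 mice at 12.5 mg and 2 of 5 at 50 mg lay below it. The means were 0.91 ± 0.47, 0.15 ± 0.75, -0.36 ± 0.86 and 0.14 ± 0.92, and the differences from vehicle were -0.76, -1.27 and -0.78 (standard error 0.43).

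Of the uroplakins, Upk3b differed more from vehicle than Upk1b at each dose. Upk3b was 1.32, 1.47, 1.26, 1.33 and 0.63 in vehicle lungs, then 1.09, 1.72, 0.21, 0.52 and 0.42 at 12.5 mg, 1.62, 0.10, 0.02, 0.14 and -0.50 at 25 mg, and 1.05, 1.45, 0.56, -0.51 and -0.15 at 50 mg. Its differences from vehicle were -0.41, -0.92 and -0.72 (standard error 0.38), with 3, 4 and 3 of 5 mice below the lowest vehicle mouse. Upk1b was 2.26, 2.43, 2.13, 2.64 and 1.89 in vehicle lungs, then 2.42, 2.41, 1.07, 2.17 and 1.91 at 12.5 mg, 2.63, 2.00, 1.66, 1.97 and 2.11 at 25 mg, and 2.52, 2.42, 1.74, 1.94 and 1.63 at 50 mg. The Upk1b differences were -0.27, -0.20 and -0.22 (standard error 0.23), no larger than the SD of 0.28 among the vehicle lungs, and 1, 1 and 2 of 5 mice lay below the lowest vehicle mouse.

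Wt1 lay furthest below vehicle of the 5 genes at 25 and 50 mg on the loess scale. Its log2 ratio was -1.19, -0.83, -0.59, -0.84 and -1.64 in vehicle lungs and -1.56, -0.84, -2.09, -1.85 and -2.31 at 12.5 mg. At 25 mg it was -0.83, -2.79, -2.89, -2.92 and -3.66, and at 50 mg it was -1.78, -1.26, -1.74, -3.22 and -2.85. At each of the higher doses 4 of 5 mice lay below all 5 vehicle mice, and the exceptions were mouse 11 and mouse 17. The differences from vehicle were -0.71, -1.60 and -1.16 (standard error 0.42). All 5 genes were well above background in all 20 lungs.

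**Figure D1:**
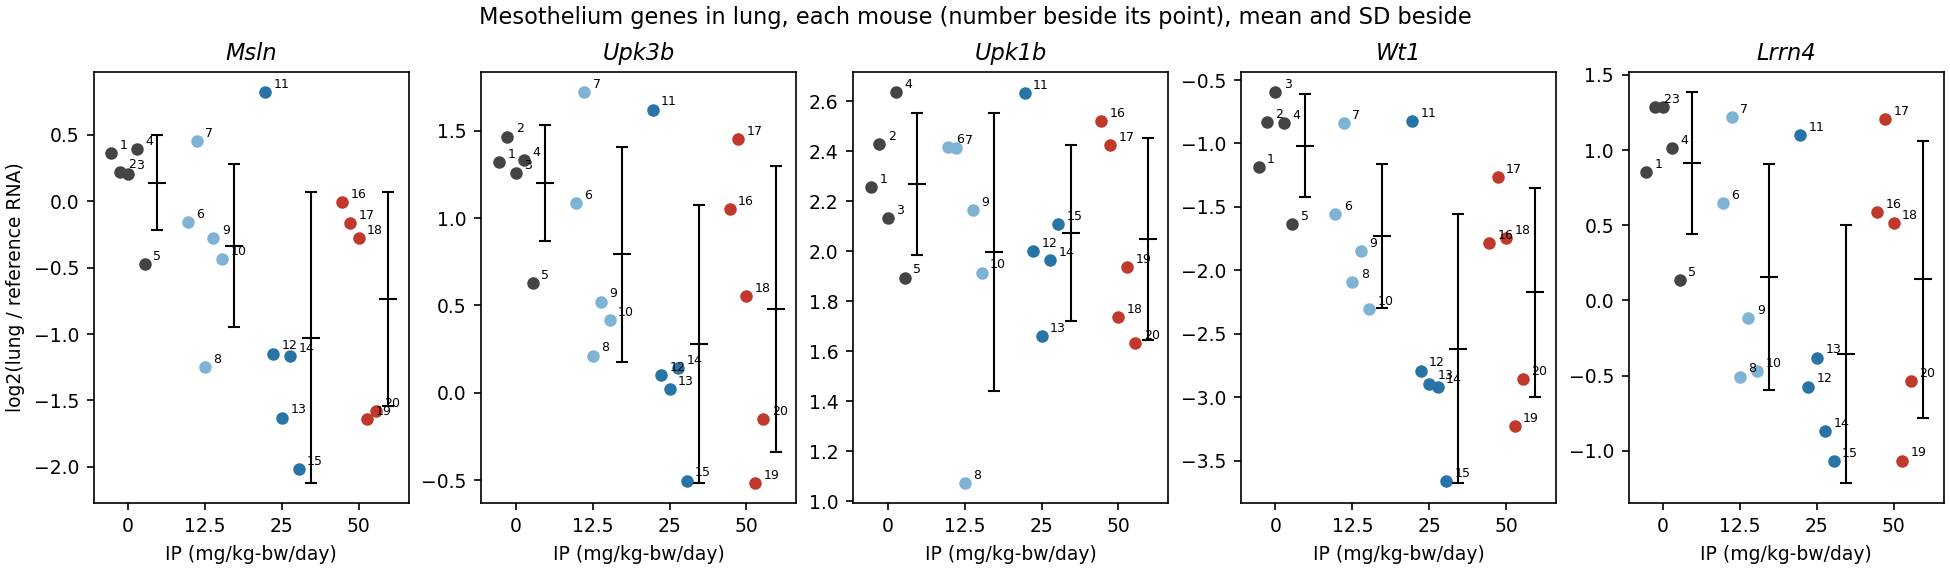
Log2 ratio to the reference RNA of Msln, Upk3b, Upk1b, Wt1 and Lrrn4 in the lung of each mouse by dose, 1 point per mouse, with the mean and SD of each group of 5 mice. Mouse 11 at 25 mg stays within or above the vehicle range for all 5 genes, while the other 4 mice of that dose lie below it for Msln, Upk3b, Wt1 and Lrrn4.

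No gene of the 5 separated a dose from vehicle without overlap. Over all probes that could be compared, 0.214%, 0.415% and 0.684% were lower without overlap at 12.5, 25 and 50 mg. In the limma fit of the 20 lungs, 0%, 0.0126% and 0.079% of probes passed an adjusted p of at most 0.05 with a fold change of at least 1.5. Because the genes were chosen on this contrast, nothing is read from these shares about them. The group differences of all 5 genes stayed below 0 at each dose in all 24 fits, which count the main fit, other scalings and left-out mice. Some of these, such as the slide as a block, leave a group difference unchanged by design. The genes were chosen on these lungs, so nothing is read from the kept sign.

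The mean of the 5 genes, set against the vehicle mean, gives the order of the mice. It was 0.02, 0.21, 0.16, 0.20 and -0.59 in vehicle mice 1 to 5, and -0.21, 0.29, -1.21, -0.61 and -0.88 in mice 6 to 10. It was 0.37, -1.18, -1.35, -1.27 and -1.73 in mice 11 to 15 and -0.23, 0.03, -0.55, -1.60 and -1.40 in mice 16 to 20. In each dose group 4 of 5 mice were below 0, and the mice above it were 7, 11 and 17. Vehicle mouse 5 lay below the 4 other vehicle mice and at about the level of mouse 9. The group means were -0.53 ± 0.58, -1.03 ± 0.81 and -0.75 ± 0.72 at 12.5, 25 and 50 mg (SD, n = 5), so the mean at 50 mg was less far below vehicle than at 25 mg, by less than 1 SD of either group.

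**Figure D2:**
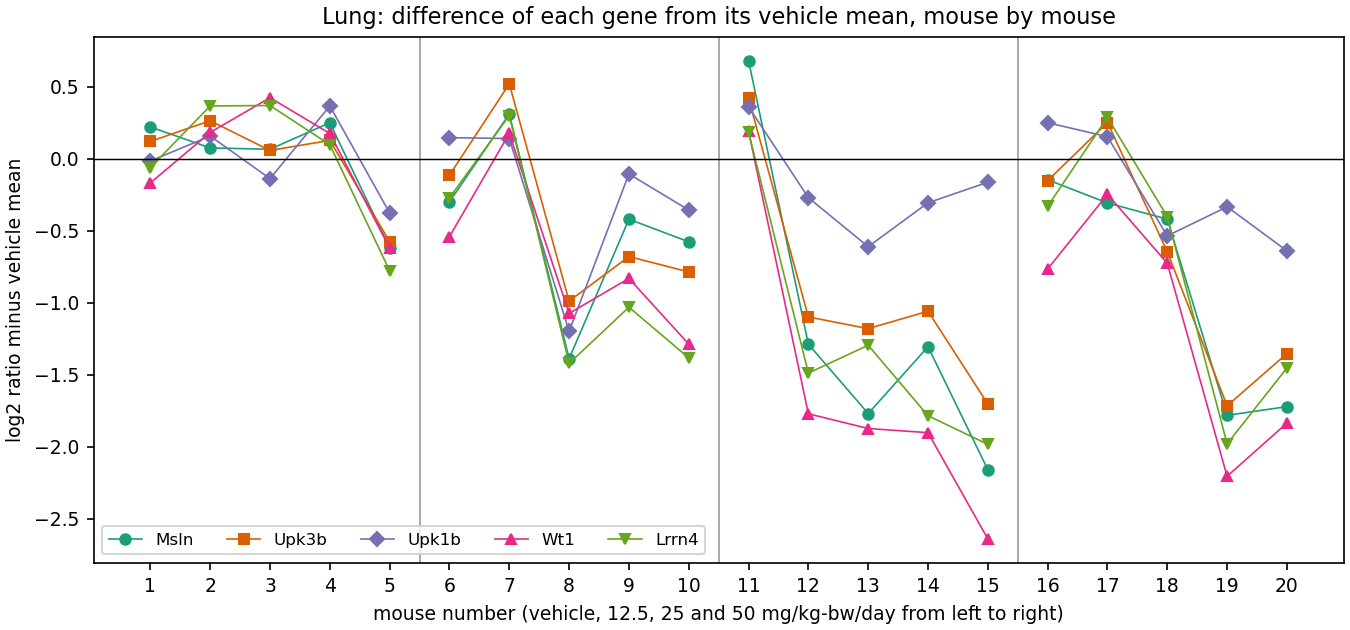
Log2 ratio of each of the 5 genes minus its own vehicle mean in the lung of every mouse, mice in order within their dose group, 1 line per gene. The lines of Msln, Upk3b, Wt1 and Lrrn4 have r of 0.907 to 0.962 with each other, and the Upk1b line has the smallest range, 1.57, though in mouse 8 it lies below those of Upk3b and Wt1.

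Each slide carried 1 lung of every dose, so the 5 slides give 5 within-slide differences per dose. At 50 mg, Msln, Upk3b, Wt1 and Lrrn4 were lower than the vehicle lung of the same slide in 5 of 5 slides, and at 25 mg in 4 of 5. At 12.5 mg Wt1 and Lrrn4 were lower in 5 of 5 slides, Upk3b in 4 and Msln in 3. The within-slide medians for Wt1 were -0.37, -1.96 and -1.15 at 12.5, 25 and 50 mg, and those for Lrrn4 were -0.25, -1.67 and -0.77. Upk1b was lower in 3 of 5 slides at each dose. The lungs also differed by slide in the mean of the 5 genes. Against their own dose mean, the 4 lungs of a slide averaged 0.56 and 0.41 on slides 1 and 2 and -0.16, -0.44 and -0.37 on slides 3 to 5. The slide held 45.2% to 58.0% of the within-dose variance of a gene, beside a median of 50.5% over 19999 genes. The forestomach arrays of the same slides averaged 0.01, 0.20, 0.14, 0.10 and -0.42 on slides 1 to 5. The part of the slide in the mouse order was not tested.

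Msln, Upk3b, Wt1 and Lrrn4 varied together among the lungs. Across the 20 lungs, Pearson's r between pairs of these 4 genes was 0.907 to 0.962, and 0.889 to 0.969 after each dose mean was taken off. After both the dose mean and the slide mean were taken off it was 0.884 to 0.961. The 4 pairs with Upk1b had r of 0.555 to 0.693 across all lungs. These values are a description, since each array gives all 5 genes at once and shares its RNA, labelling and scaling. The share of probes above background on an array had r = -0.245 with the mean of the 5 genes. The range over the 20 lungs was 2.84 log2 units for Msln, 3.07 for Wt1 and 1.57 for Upk1b.

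The stretch before the start of transcription is shown for the 2 genes of the 5 for which RefSeq sequence was at hand, Lrrn4 and Upk3b, and for Aldh1a2, which followed them closely in lung (below). Each is the 250 bases before a RefSeq start in build GRCm38.p6, written 5′ to 3′ along the gene, and capitals mark matches on either strand to GGAATG, the core of the TEAD sites, to GCGTG, the core bound by the aryl hydrocarbon receptor, to GCGTGGG, a site type of WT1 and EGR factors that contains GCGTG, and to TATAAA. The Lrrn4 window lies at chr2:132880863-132881112 on the minus strand, that of Upk3b at chr5:136038246-136038495 on the plus strand and that of Aldh1a2 at chr9:71215539-71215788 on the plus strand. The Lrrn4 window lies inside the span of the gene, chr2:132866686-132894010, so it precedes an internal start and not the outermost one.
Lrrn4: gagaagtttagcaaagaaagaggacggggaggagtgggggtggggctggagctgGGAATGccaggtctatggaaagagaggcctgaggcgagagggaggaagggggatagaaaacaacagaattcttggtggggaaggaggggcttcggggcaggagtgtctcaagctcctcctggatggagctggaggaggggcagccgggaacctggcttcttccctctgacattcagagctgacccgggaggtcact
Upk3b: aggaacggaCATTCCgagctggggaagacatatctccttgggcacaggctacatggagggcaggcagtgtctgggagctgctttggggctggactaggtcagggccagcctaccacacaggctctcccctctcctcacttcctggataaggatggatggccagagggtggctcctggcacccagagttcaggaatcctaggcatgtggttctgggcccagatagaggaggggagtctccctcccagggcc
Aldh1a2: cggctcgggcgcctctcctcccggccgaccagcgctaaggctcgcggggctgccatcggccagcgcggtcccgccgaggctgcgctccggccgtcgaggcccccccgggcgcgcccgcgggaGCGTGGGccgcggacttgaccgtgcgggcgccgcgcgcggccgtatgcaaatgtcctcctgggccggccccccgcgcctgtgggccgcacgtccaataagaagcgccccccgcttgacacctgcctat
Both member windows held 1 match to GGAATG, at 196 bases before the start in Lrrn4 and 241 in Upk3b. That motif occurred in 12.6% of 32851 mouse promoter windows of this length. Neither held GCGTG, which occurred in 28.2% of windows, nor GCGTGGG or TATAAA, which occurred in 4.3% and 12.4%. The Aldh1a2 window held GCGTGGG. A match is a description of the letters and not of a bound site.

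Among vehicle mice, all 5 genes were higher in lung than in liver, and all but Wt1 were higher in lung than in forestomach. The vehicle lungs were in view when the genes were picked, so the tests against lung below are not independent of that choice. Msln stood at 0.14 ± 0.35 in lung (n = 5), at -2.14, -1.38, -1.83 and -1.50 in the forestomach of mice 1, 2, 3 and 5, and at -4.33, -4.76, -4.55 and -4.90 in their livers. The 3 tissues did not overlap for Msln. The lung was above the liver by 4.78 (standard error 0.34, adjusted p = 8.1e-18 by limma over all probes), a fold of 27.4 on the ratio scale, and above the forestomach by 1.85 (limma, adjusted p = 1.1e-05). The forestomach was above the liver by 2.92 (limma, adjusted p = 7.9e-10).

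Upk1b was 2.27 ± 0.28 in vehicle lung and 0.69, 0.36, 0.44 and 0.91 in forestomach, which did not overlap, a difference of 1.67 (limma, adjusted p = 1.4e-09). Upk3b was -0.27, 0.52, 0.20 and 0.82 in vehicle forestomach, where the highest mouse lay above the lowest lung at 0.63. Lrrn4 was -0.41, 0.09, -0.16 and 0.53 there, and its highest mouse also lay above the lowest lung at 0.14. The lung was above the forestomach by 0.88 for Upk3b (limma, adjusted p = 0.036) and by 0.90 for Lrrn4 (limma, adjusted p = 0.048). Neither call was firm. The Upk3b call was lost without mouse 1, 2, 3 or 4, with adjusted p up to 0.23 by limma. The Lrrn4 call was lost without any 1 of mice 1, 2, 3, 4, 8, 12, 13, 14, 16 or 18, with adjusted p up to 0.20 by limma.

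The Wt1 values of forestomach and lung overlapped. Wt1 stood at -1.89, -0.20, -0.75 and -0.64 in vehicle forestomach and at -1.02 ± 0.41 in lung, a difference of -0.15 (standard error 0.40, limma adjusted p = 0.83) whose sign turned without mouse 2 (0.03), without mouse 5 (0.08) and with median centring in place of loess (0.51). Both tissues were above the liver, by 1.52 for lung (limma, adjusted p = 0.0014) and 1.67 for forestomach (limma, adjusted p = 0.0011).

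Upk3b, Upk1b and Lrrn4 were not well above background in any of the 4 vehicle livers, so only a bound can be given there. On the normalized Cy5 signal, with the lowest well-measured signal of an array as the floor, the lung was at least 3.40-fold higher for Upk3b, at least 5.04-fold for Upk1b and at least 3.1-fold for Lrrn4, and the limma fit of the ratios gave adjusted p of 8.4e-07, 1.1e-16 and 2.4e-05. The floor changed neither these folds nor the forestomach folds that follow, which all equal the folds of the Cy5 signal itself. The forestomach was at least 1.81-fold above the liver for Upk3b (limma, adjusted p = 0.0074, lost without mouse 2 at 0.070 or mouse 5 at 0.059), at least 1.71-fold for Upk1b (limma, adjusted p = 9.1e-05) and at least 1.76-fold for Lrrn4. The Lrrn4 difference of 0.94 had an adjusted p of 0.053 by limma without a block and of 0.028 with the mouse as a replicate block, and it also passed without mouse 7, 9, 11, 17 or 19. In all, 5 of 5 genes passed between lung and liver, where 26.9% of all probes did. Between lung and forestomach 4 of 5 passed, beside 19.5% of probes, and between forestomach and liver 4 of 5, beside 22.7%. Without mouse 1, 2, 3 or 4, 2 of 5 passed between lung and forestomach. Since the genes were picked with the vehicle lungs in view, nothing is read from the counts that involve lung. The liver arrays lay on slides of their own and were read out by another version of the scanner software, so for the liver the slide, the software and the tissue cannot be told apart.

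**Figure D3:**
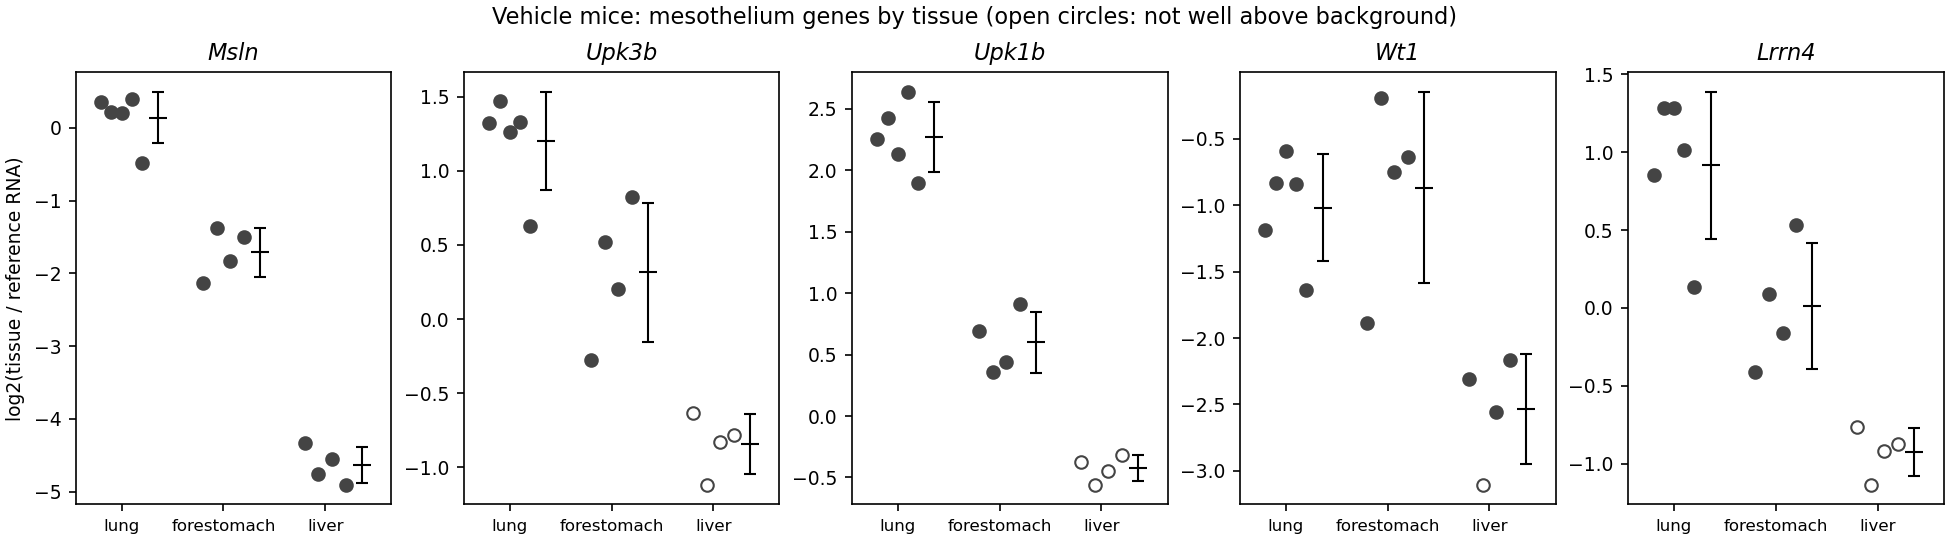
Log2 ratio to the reference RNA of the 5 genes in lung (5 mice), forestomach (4 mice) and liver (4 mice) of vehicle mice, 1 point per mouse with the group mean. Lung is highest for Msln, Upk3b, Upk1b and Lrrn4, lung and forestomach overlap for Wt1, and open circles mark probes that were not well above background.

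In the forestomach no gene of the 5 passed at any dose, and 0% of all probes did. By unadjusted p of limma under 0.05 the count was also 0 of 5 at each dose, beside 4.12%, 3.6% and 3.89% of probes. Msln was -2.14, -1.48, -1.82, -2.23 and -2.66 at 12.5 mg, -1.002, -1.18, -1.18, -1.42 and -1.58 at 25 mg, and -2.20, -2.38, -1.92, -1.41 and -2.32 at 50 mg. All 5 mice at 25 mg lay above the vehicle mean of -1.71, with 3 of them above every vehicle mouse, while 4 of 5 mice lay below it at the other doses. The differences from vehicle were -0.35, 0.44 and -0.33 (standard error 0.23, limma adjusted p = 0.977 at the lowest), and the last turned to 0.08 with median centring.

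The other 4 genes differed from vehicle in forestomach by less than the SD of the vehicle mice. Upk3b differed by -0.17, 0.46 and -0.04 (standard error 0.27) and Upk1b by -0.12, 0.23 and -0.15 (standard error 0.21). Wt1 differed by -0.60, -0.19 and -0.65 (standard error 0.40), and its values ran from -2.58 to -0.20 over the 19 mice. Lrrn4 differed by 0.05, 0.06 and -0.13 (standard error 0.25). Mouse 20 was the lowest at 50 mg for Upk3b, Upk1b, Wt1 and Lrrn4. Pairs of the 5 genes had r of 0.529 to 0.780 across the 19 forestomachs.

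In the liver no gene of the 5 passed at any dose, and again 0% of all probes did. By unadjusted p of limma under 0.05 the counts were 1, 1 and 2 of 5, beside 2.6%, 4.44% and 6.87% of probes, and the same counts passed with a fold change of at least 1.2 as well, beside 1.48%, 3.04% and 5.15% of probes. The genes were Upk3b, lower at 12.5 mg, Msln, higher at 25 mg, and Wt1 and Lrrn4, lower at 50 mg. The Cy5 signal of Upk3b was 76 to 138 at 12.5 mg and 88 to 91 in vehicle livers. That of Lrrn4 was 68 to 119.5 at 50 mg and 71.5 to 75.5 in vehicle livers, so no common direction is read from the counts. Msln, the one gene well above background in all 19 livers, was -4.69, -4.95, -4.77, -4.71 and -5.36 at 12.5 mg, -4.33, -4.51, -4.29, -3.87 and -4.13 at 25 mg, and -4.67, -5.24, -5.09, -4.66 and -4.64 at 50 mg. As in forestomach, all 5 mice at 25 mg lay above the vehicle mean, 3 of them above every vehicle mouse. The difference at 25 mg was 0.41 (standard error 0.17, limma adjusted p = 0.90), and those at 12.5 and 50 mg were -0.26 and -0.23 with loess and 0.10 and 0.34 with median centring. Wt1 was well above background in 16 of 19 livers and ranged from -3.40 to -2.17. Lrrn4 was not well above background in any of the 19 livers. Its ratios at 25 mg lay below those of vehicle mice without overlap, beside 1.24% of probes, but its Cy5 signals of 69.5 to 100.5 overlapped those of vehicle mice, 71.5 to 75.5, so no lower level is read from them. Under median centring the mean of the 5 genes turned from -0.28, -0.15 and -0.34 to 0.04, 0.19 and 0.19 at 12.5, 25 and 50 mg, so no direction is given for the liver.

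**Figure D4:**
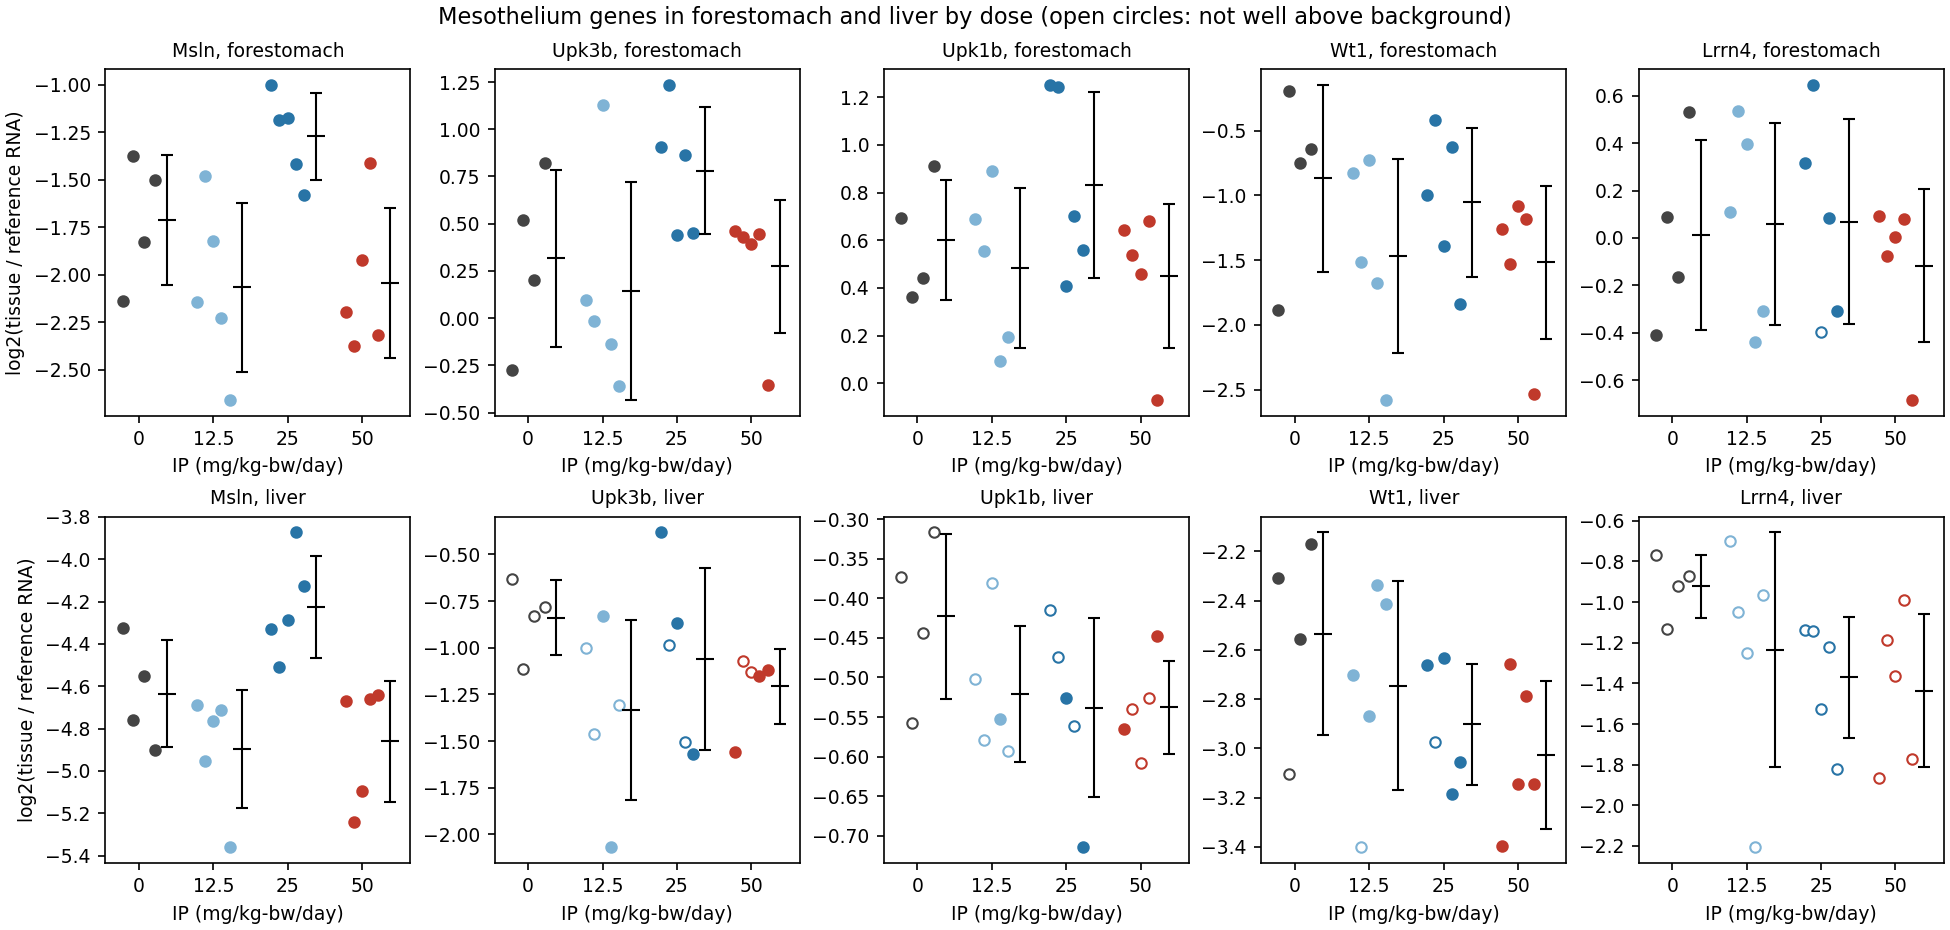
Log2 ratio of the 5 genes in forestomach and liver of each mouse by dose, each panel with its own scale, 1 point per mouse with the group mean and open circles where the probe was not well above background. The dose groups overlap for every gene in forestomach, and Msln at 25 mg lies above the vehicle mean in all 5 mice of both tissues.

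Between tissues of the same mouse the mean of the 5 genes was only weakly related. Across 19 mice, Pearson's r was 0.19 between lung and liver, 0.07 between lung and forestomach and 0.34 between forestomach and liver. Mouse 11, the highest lung, had a forestomach mean 0.42 above vehicle, and mouse 20, with a low lung, had the lowest forestomach of all, at -0.86. Other mice went the other way. Mouse 12 had the highest forestomach, at 0.63, with a lung at -1.18, and mouse 14 had 0.25 in forestomach and -1.27 in lung. These are descriptions of single mice.

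A wider list of 33 mesothelial genes outside the 5 was also examined. Of these, 17 were listed as restricted to mesothelium in these organs as far as known and 16 as shared with epithelium or other cells. These labels were not tested here. None passed in lung at any dose by limma. With an unadjusted p under 0.05 the counts were 1, 11 and 10 of 33 at 12.5, 25 and 50 mg, beside 3.92%, 6.53% and 8.8% of all probes. With a fold change of at least 1.2 as well they were 1, 11 and 9, beside 1.06%, 2.33% and 3.56% of all probes. Lower group means than vehicle were found for 28, 28 and 26 of the 33 genes, with medians of -0.16, -0.23 and -0.22, against medians of 0.00385, 0.00718 and 0.00854 over all named genes. With median centring the counts fell to 18, 17 and 17 and the list medians to -0.01, -0.02 and -0.0078, while the median over all named genes rose to 0.09, 0.13 and 0.12. The list was drawn up with results of these lungs known, and its direction is not independent of them.

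The genes of the list with the largest differences in lung at 50 mg were Aldh1a2, Efemp1 and Gpm6a. Aldh1a2, which makes retinoic acid and is a classical mesothelial enzyme, was 3.62 ± 0.24 in vehicle lungs and 2.86 ± 0.58, 2.28 ± 0.79 and 2.44 ± 0.84 at the 3 doses, a difference of -1.18 at 50 mg. Efemp1, which encodes an extracellular matrix glycoprotein of the fibulin family, differed by -0.67 and Gpm6a, which encodes a membrane glycoprotein, by -0.62. Not all listed genes went this way. Stmn2, also listed as restricted, was 1.62 ± 0.12 in vehicle lungs and 1.58 ± 0.15, 2.01 ± 0.21 and 2.05 ± 0.08 at the 3 doses. The shared gene Tm4sf1 differed by 0.18, 0.44 and 0.23. With the slide as a block, Bnc1, a transcription factor of squamous epithelia and mesothelium, passed the thresholds at 25 mg (-0.78, standard error 0.17), as 0.106% of probes did, and Aldh1a2 passed at 50 mg (standard error 0.30), as 0.278% of probes did. Neither passed without the block, and since the list was chosen with these lungs in view, nothing is read from these counts.

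In forestomach and liver none of the 33 genes passed at any dose by limma, and 0, 1 and 2 in forestomach and 3, 1 and 6 in liver had an unadjusted p under 0.05. Requiring a 1.2-fold difference too left the counts at 0, 1 and 2 in forestomach and 3, 1 and 6 in liver, beside 2.14%, 1.62% and 1.83% of probes in forestomach and the liver shares given above. In vehicle mice the list was higher in lung and forestomach than in liver. Between lung and liver 25 of 33 passed, beside 26.9% of all probes, 20 of them higher in lung, with a median of 2.00 beside 0.02 for all named genes. The restricted genes higher in lung were Aldh1a2 (4.21), Gpm6a (4.08), Nkain4 (4.03), Rspo1, Igfbp6, Stmn2, Sulf1, Efemp1, Gata6, Cldn15 and Tmem151a (0.72), and Prg4, which encodes the lubricant lubricin, was lower (-2.56). Of the shared genes, Tm4sf1, Krt19, Krt7, Cav1, Pdpn, Ezr, Slpi, Cdh1 and Procr were higher in lung, and Cdh2, Clu, C3 and Rarres2 were lower. C3, the central complement component, is made mainly by the liver.

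Between lung and forestomach 17 of 33 passed, beside 19.5% of all probes, 14 of them higher in lung, with a median of 0.38. The restricted genes among them were Igfbp6 (2.05), Gpm6a (1.67), Stmn2, Aldh1a2, Efemp1, Sulf1 and Nkain4 (0.82), all higher in lung, as were the shared genes Tm4sf1, Dpp4, Pdpn, Krt7, C3, Cav1 and Rarres2. Slpi, Clu and Procr were lower in lung. Between forestomach and liver 25 passed, beside 22.7% of all probes, 19 of them higher in forestomach, with a median of 1.22. The restricted genes that passed were Rspo1 (3.29), Nkain4, Aldh1a2, Gpm6a, Sulf1, Stmn2, Cldn15, Tmem151a, Efemp1 and Igfbp6 with higher values in forestomach and Prg4 (-2.02) with lower ones. Krt19, Slpi, Ezr, Cdh1, Krt7, Procr, Cav1, Tm4sf1 and Pdpn were higher in forestomach, and C3, Cdh2, Dpp4, Rarres2 and Clu were lower.

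Relatives of the 5 genes by name (other uroplakins, other Lrrn genes, Mslnl, the antisense transcript Wt1os and Tspan1, 10 genes in all) had medians near 0 in lung. None passed at any dose in any tissue by limma. With an unadjusted p under 0.05, 1 of 10 did in lung at 50 mg, beside 8.8% of probes, and 1 of 10 in forestomach at 12.5 mg, beside 4.12%. Their median differences in lung were 0.00587, -0.02 and -0.02. In vehicle mice 6 of 10 passed between lung and liver, 5 between lung and forestomach and 3 between forestomach and liver, beside 26.9%, 19.5% and 22.7% of probes.

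Of 15296 named genes measured in at least 10 lungs, 4 had r above 0.9 with the mean of the 5 genes across the 20 lungs, and the median r was -0.0035. They were C2, a serine protease of the classical complement pathway (0.957), Aldh1a2 (0.948), Sulf1, a sulfatase that trims heparan sulfate (0.923), and C1s2, which encodes a complement C1s protease (0.903). The next were Gfpt2 of the hexosamine pathway (0.897), the growth factor Tgfb3 (0.888), the receptor kinase Mst1r (0.880), Gas1, a co-receptor for Hedgehog (0.878), Pcnx2 (0.878) and Wdr92 (0.873). After the dose means were taken off, the first 9 were C2 (0.950), Aldh1a2 (0.939), Daglb (0.921), Pcnx2 (0.918), Sulf1 (0.915), Tgfb3 (0.879), C1s2 (0.876), the secreted Wnt antagonist Sfrp2 (0.874) and Gas1 (0.858), and 7 of these were also among the first 10 named before. Of the 33 listed mesothelial genes, 31 could be ranked and 8 were among the first 100, namely Aldh1a2, Sulf1, Cldn15, C3, Bnc1, Gpm6a, Clu and Nkain4. The median r was 0.66 for the restricted genes and 0.40 for the shared ones. Not all restricted genes followed the 5, as r was -0.41 for Stmn2 and -0.14 for Itln1. Each of these values is across the 20 lungs, which share the arrays, and the order depended on the scale: from 4 of 10 genes (Cy5 signal alone) to 10 of 10 were the same under other scalings.

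The levels of these genes followed the mice in lung. C2 was 3.31 ± 0.20 in vehicle lungs and 3.02 ± 0.71, 2.44 ± 0.73 and 2.70 ± 0.72 at the 3 doses, and Sulf1 was 2.97 ± 0.15, 2.57 ± 0.38, 2.42 ± 0.39 and 2.40 ± 0.33. C2 was higher in liver, at 6.10 ± 0.32 in vehicle mice, and at 6.03 ± 0.14 at 50 mg.

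**Figure D5:**
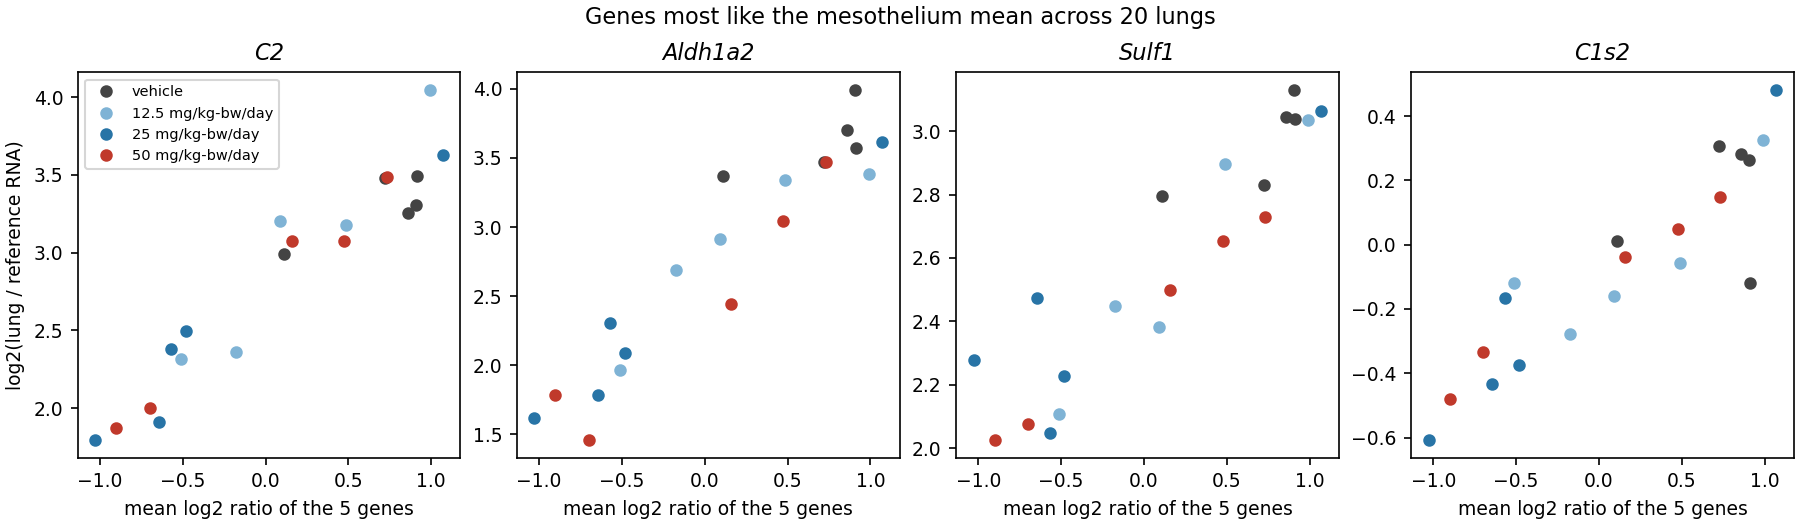
Log2 ratio of genes with the highest Pearson r to the mean of the 5 mesothelial genes in lung, against that mean, 1 point per lung (20 lungs) with colours for dose. C2 and Aldh1a2, with r of 0.957 and 0.948, follow the mean across all 4 dose groups.

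Markers of fat and heart muscle had lower group means in the lungs of treated mice, as the 5 genes did. Of 6 white fat genes 6 had lower means than vehicle at each dose, with medians of -0.98, -1.65 and -1.31, and all 5 brown fat genes did, with medians of -1.21, -1.34 and -1.43. Of 8 heart muscle genes 7, 7 and 8 were lower, with medians of -0.75, -0.94 and -0.83, and 6, 6 and 7 with median centring. By limma 1 brown fat gene passed at 50 mg and no gene of these 3 lists otherwise. The summed Cy5 signal of the white fat genes ran from 1796 to 30429 in vehicle lungs, from 2207 to 14340 at 12.5 mg, from 1655 to 3977 at 25 mg and from 1879 to 3824 at 50 mg. That of the heart genes ran from 10324 to 141181 in vehicle lungs and from 8988 to 49488 at 50 mg, and that of the brown fat genes from 1285 to 8435 and from 1616 to 2848.

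How the fat and heart muscle lists ran with the 5 genes from lung to lung was not determined. At the 3 doses the medians of the alveolar type 1 markers were -0.0079, 0.04 and -0.04 and those of the endothelial markers 0.01, 0.15 and 0.05. The part of fat and heart tissue in the lung values of the 5 genes was not tested.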

How the data were processed

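The submitters hybridised each sample (Cy5) with Universal Mouse Reference RNA (Cy3) and read the slides with Agilent Feature Extraction, versions 10.7.3.1 (lung, forestomach) and 11.0.1.1 (liver) per the file headers. The deposited values were of 3 kinds. The spot and local background intensity of both channels, with flags for signal above background, was deposited as scanned. The authors' scanner software also gave a log10 ratio of Cy5 over Cy3, background-subtracted and dye-normalized. The authors' LOWESS-normalized log2 ratios were deposited in 1 table, whose lung and forestomach columns tracked the scanner values of the same probes (r of 0.996 to 0.999) and whose liver columns did not and were left out.

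Here the log2 ratio of the median signals, with no background subtraction, was normalized by loess within each array (limma 3.58.1, R 4.3.3), with control spots at weight 0, and spots of a probe were averaged without outlier-flagged ones. Limma was fitted per tissue on 4 groups for dose, and on all 58 arrays in 12 groups for the vehicle tissues, two-sided, with Benjamini-Hochberg adjustment over 55681 probes. Passing means an adjusted p no higher than 0.05 with a difference of 1.5-fold or more. The study's methods state 4 vehicle mice per tissue while the labels number 5 for lung; all 5 were used, and the values without mouse 4 are among those with 1 mouse left out. The number of arrays limits the precision. The sample titles number the mice in all 3 tissues, and equal numbers were taken as the same animal. For equal numbers, the median correlation of the deviations from the group means was 0.154 between lung and forestomach (19 pairs). It was 0.0437 for lung and liver and 0.0155 for forestomach and liver (19 pairs each). For other mice of the same dose these medians were -0.0371, -0.0229 and -0.0105. Lung and forestomach of a number shared a slide except for mouse 3, so slide and animal cannot be told apart there.

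The 5 genes and the lists were chosen with earlier results of these data known. Of the list outside the 5, the genes that passed in a comparison were named, with the 3 largest differences in lung at 50 mg and the first 10 genes by correlation with the mean of the 5, with and without the dose means, except 1 result that is not reported here. Alternatives were background correction (normexp, offset 50), median centring, Aquantile scaling, the Cy5 signal alone, the scanner's and the authors' ratios, flagged spots kept, dim probes left out, the mean over a gene's probes, a trend and robust fit, groups fitted in pairs, the slide or the mouse as a block, an unadjusted p with a fold of 1.2, and each mouse left out.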

Additional observations from a re-analysis of the deposited data

Results flagged for a closer look

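In 60 groups of 4 or 5 mice (5 genes, 3 tissues, 4 dose groups), 5 had a mouse whose distance to its nearest neighbour was a large share of the range of its group by Dixon's criterion, and chance alone gives about 1 such group in 20. In vehicle lung, mouse 5 was the lowest for Msln (-0.48 with the next mouse at 0.21, a share of 0.788) and for Upk3b (0.63 with the next at 1.26, a share of 0.754). In forestomach at 50 mg, mouse 20 was the lowest for Upk3b (-0.35 with the next at 0.39, a share of 0.917) and for Lrrn4 (-0.68 with the next at -0.08, a share of 0.783). In liver at 50 mg, mouse 16 was the lowest for Upk3b (-1.56 with the next at -1.15, a share of 0.844). Genes of 1 array are not independent of each other.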

How the results depend on the processing

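The group differences of the 5 genes in lung kept their sign under all alternatives, and all 5 kept passing between vehicle lung and liver. Some alternatives cannot change a group difference, and the genes were picked with these lungs in view, so nothing is read from this. Of 368 summary results under other settings 347 kept their direction, their side of the threshold or their size, and of 342 with 1 mouse left out 338 did. Between vehicle lung and forestomach 2 genes passed with the Cy5 signal alone, with the scanner's log ratio and with the authors' values, and 2 to 4 with 1 mouse left out. The Wt1 difference there turned to 0.51 with median centring and to 0.03 and 0.081 without mice 2 and 5 (range -0.45 to 0.081). With the mouse as a replicate block the Lrrn4 difference between forestomach and liver passed (0.94, adjusted p = 0.028 by limma), and no other call of the 5 genes changed. In liver the mean of the 5 genes was 0.038, 0.19 and 0.19 at 12.5, 25 and 50 mg with median centring, and 0.077 and -0.00731 at 25 and 50 mg with the scanner's ratio. With an unadjusted p under 0.05 and a fold of 1.2, 1, 1 and 2 of the 5 genes passed in liver at the 3 doses, the one at 25 mg higher and the others lower. Of the 33 other mesothelial genes, the liver had 3, 1 and 6 that then passed, the lung 1, 11 and 9, and the forestomach 0, 1 and 2. With the slide as a block 1 of them passed in lung at 25 mg and 1 at 50 mg. The cause of these changes was not tested. Low signal limits Upk3b, Upk1b and Lrrn4 in liver to bounds. The authors' values were not run for the liver.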
